A study of Rattus norvegicus with 32 samples.

Results

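The genes described here encode the proteins of blood coagulation and fibrinolysis that endothelial cells make or display on their surface. They are F8 (ENSRNOG00000031197), Vwf (ENSRNOG00000019689), F3 (ENSRNOG00000011800), Tfpi (ENSRNOG00000005039), Thbd (ENSRNOG00000004687), Procr (ENSRNOG00000019330), Plat (ENSRNOG00000019018), Plau (ENSRNOG00000010516) and Plaur (ENSRNOG00000037931). They were matched by gene symbol alone, and all 9 were found once each among the 32623 genes of every count table. The list was chosen with earlier results of these data known. All 9 passed the filter on low counts in each of the comparisons.

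Endothelium keeps blood fluid by balancing several sets of proteins. F8 encodes coagulation factor VIII, which in the liver is made mainly by sinusoidal endothelial cells, and Vwf encodes von Willebrand factor, the carrier of factor VIII and the tether of platelets. F3 encodes tissue factor, the starter of coagulation, and Tfpi encodes its inhibitor, tissue factor pathway inhibitor. Thbd (thrombomodulin) and Procr (the endothelial protein C receptor) together turn thrombin into an activator of the anticoagulant protein C. Plat (tissue plasminogen activator) and Plau (urokinase) cleave plasminogen to plasmin, which dissolves fibrin, and Plaur is the surface receptor of urokinase.

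Liver sinusoidal endothelial cells (LSECs), the fenestrated lining of the liver's capillaries, were isolated from rats by perfusion, enzymatic digestion and an iodixanol gradient, and their poly(A) RNA was sequenced in 32 libraries. In the carbon tetrachloride (CCl4) model, male Wistar Han rats inhaled this liver toxicant and drank water with phenobarbital, which speeds its activation; whether the untreated animals also received phenobarbital is not given in the sources used here. The 22 libraries of this model were 6 from untreated healthy rats, 5 after 2 weeks (acute injury), 5 after 6 weeks (fibrosis) and 6 from rats called CCl4 treated, for which the series gives 12 to 14 weeks (cirrhosis). The other 10 libraries belong to an experiment with a second toxicant, thioacetamide (TAA), and were split by their labels into 5 called control and 5 called TAA control. Cells were taken several days after the last dose of toxicant, and whether they were cultured before lysis is not given in the sources used here for the RNA. The labels name Wistar Han for all libraries and the study Sprague-Dawley for the TAA experiment. Which of its groups received TAA is not settled by the labels, so its groups are called by their labels and their differences are not read as an effect of disease. The series gives as many rats as libraries in each group, but the labels do not tie a library to an animal, so p-values measure the spread between these libraries.

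Early CCl4 injury went with lower levels of most of these genes and higher levels of F3 and Tfpi, and the cirrhotic libraries overlapped the healthy ones for all members but Plat. In acute injury 5 of the 9 genes were lower than in healthy LSECs (Vwf, Thbd, Plat, Plau and F8) and 2 were higher (F3 and Tfpi), where 37.9% of all genes tested were called lower, 35.5% higher and 73.4% in either direction. In fibrosis 6 were lower, Procr now among them, and F3 and Tfpi were again higher, where 34.9% of all genes were called lower, 35.3% higher and 70.2% in either direction. In cirrhosis 0 were lower, also with an unadjusted p below 0.05, edgeR or DESeq2, and 3 were higher (Plat, F3 and Tfpi), where 24.7% of all genes were called lower, 27.1% higher and 51.8% in either direction. A gene was called when its Benjamini-Hochberg adjusted p from limma-voom over all genes tested was below 0.05 and its fold change exceeded 1.5. Since most genes were called in these comparisons, a call by itself does not set these genes apart. The groups did not overlap for 7 members in acute injury and 8 in fibrosis, where 60% and 58.7% of all genes tested had no overlap. These comparisons share the 6 healthy libraries.

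**Figure D1:**
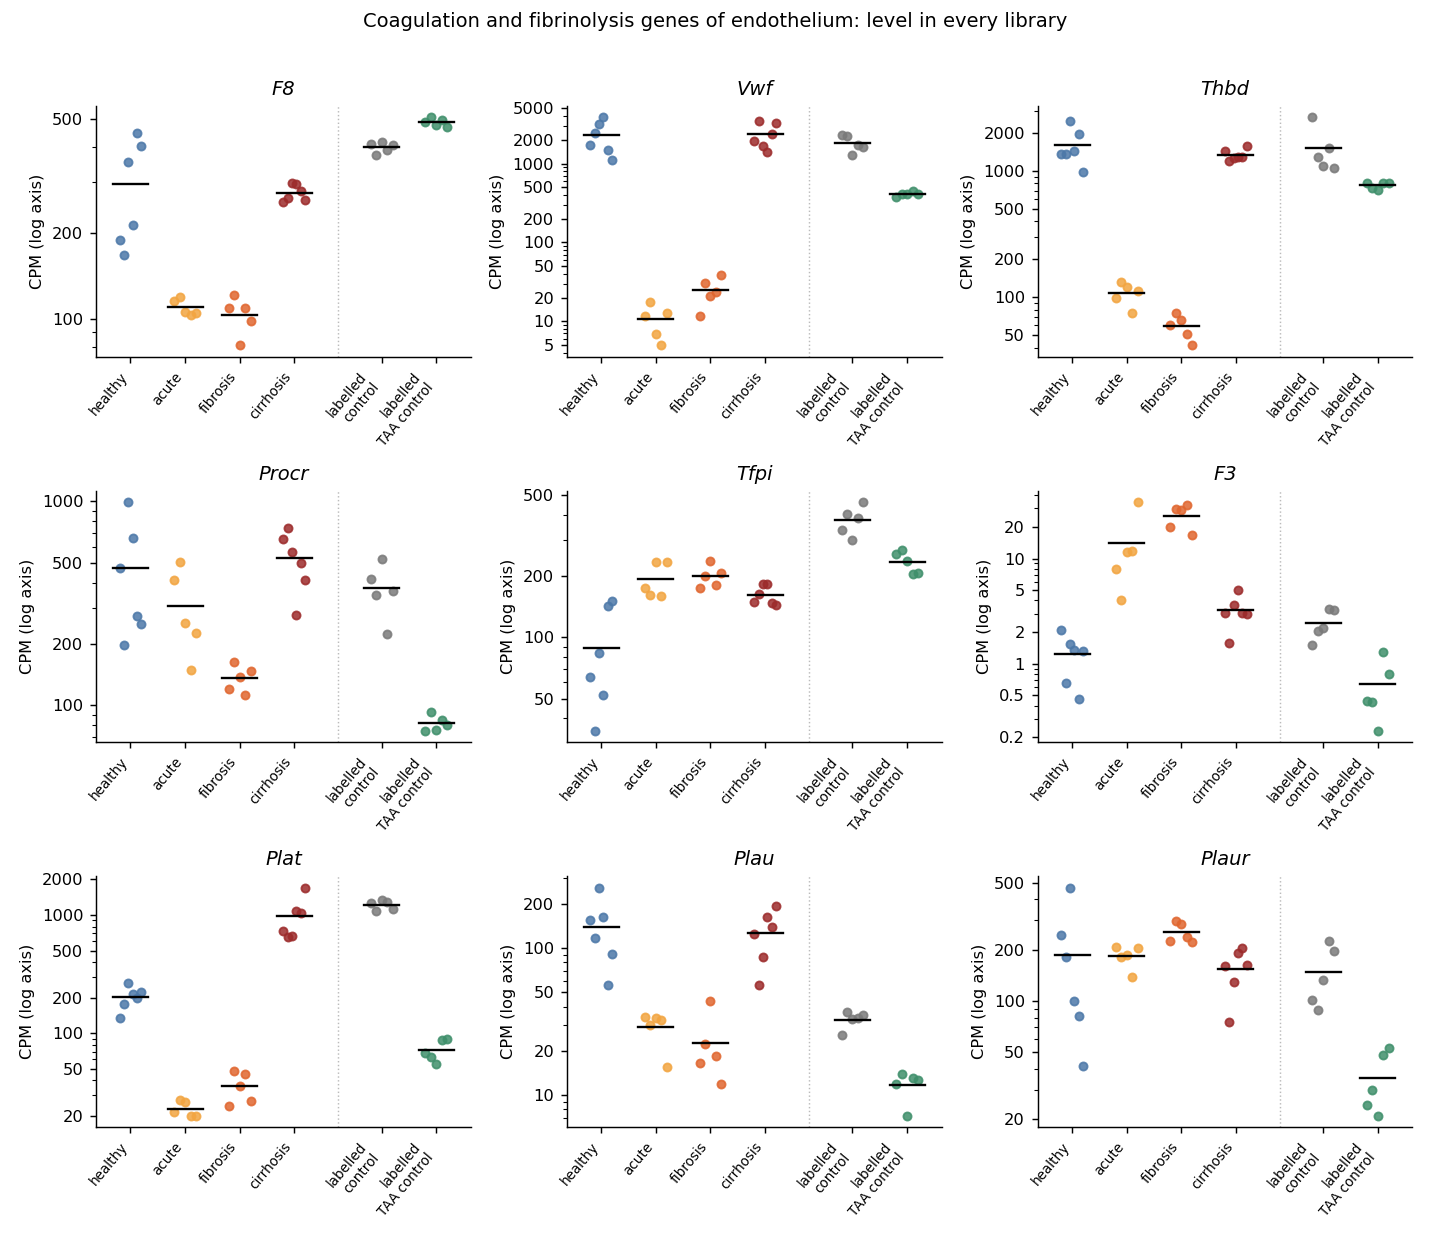
Level of each gene in every library, in CPM (counts scaled to a common library size, log axis); each point is 1 library, black lines are group means, and the dotted line separates the CCl4 model from the TAA experiment, which was scaled separately. Vwf fell from a mean of 2303 CPM in healthy to 10.7 CPM in acute libraries and stood at 2353 CPM in cirrhosis, whereas the mean of F3 was highest in fibrosis.

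**Figure D2:**
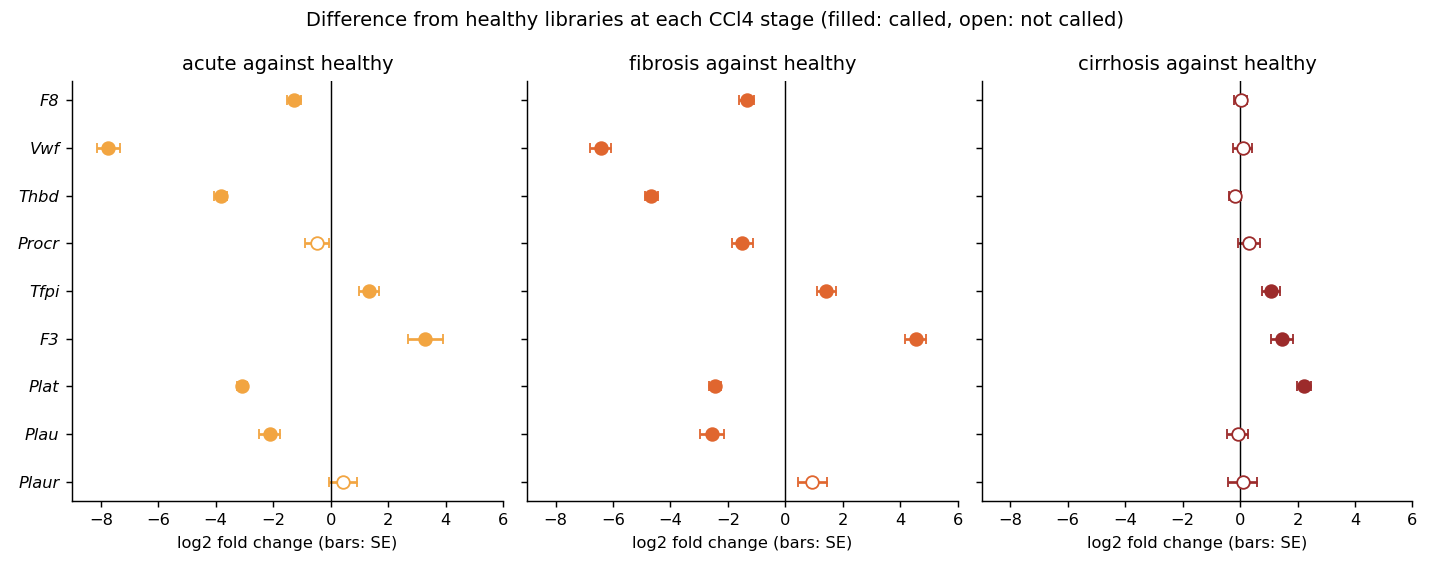
Log2 fold change of each gene against the healthy libraries at the acute, fibrosis and cirrhosis stages, with bars of 1 standard error; filled points were called and open points were not. Vwf, Thbd, Plat and Plau lie far to the left in the first 2 panels, and Plat crosses to 2.22 in the third.

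Library totals ran from 25646531 to 46464289 counts. The TMM scaling factors (trimmed mean of M values) were 0.712 to 0.939 in healthy libraries and 0.975 to 1.18 in all others, and without them the median log2 fold change of all genes moved from -0.09 to 0.32 in acute injury, from -0.03 to 0.37 in fibrosis and from 0.07 to 0.42 in cirrhosis. The markers of LSECs were present in all groups, but their level was uneven. The summed level of 13 LSEC markers was 17009.5 to 31205 CPM in healthy, 2476 to 3073 CPM in acute, 1723 to 2736 CPM in fibrosis and 15426 to 20024 CPM in cirrhosis libraries, and 11, 12 and 5 of the 13 were lower than in healthy at these stages. In cirrhosis 2 of the 13 were higher. The 12 markers of capillary and large-vessel endothelium summed to 3757 to 6807 CPM, 1852 to 3475 CPM, 1406 to 2169 CPM and 4781 to 7625 CPM, with 7, 8 and 3 lower and 2, 2 and 4 higher. This list holds Vwf, itself a member, so its sum is not separate from the members. Vwf alone had means of 2303, 10.7, 25.1 and 2353 CPM, and Cdh5, the highest gene of the list, 1294, 1597, 1040 and 1506 CPM. Markers of other cells moved with the stages as well. The 10 hepatocyte markers summed to 839.7 to 20071 CPM, 94.4 to 819.8 CPM, 1136 to 4767 CPM and 1876 to 11912 CPM, and 10, 6 and 2 of them were lower than in healthy. The 12 Kupffer cell and macrophage markers summed to 584 to 4156 CPM, 97.1 to 248 CPM, 39.7 to 242 CPM and 1234 to 3522 CPM, with 10 of 11, 11 of 11 and 0 of 12 tested genes lower, and Timd4 at 0 in every acute and fibrosis library. Of the 12 tested in cirrhosis, 1 was higher. Markers of platelets, which also carry von Willebrand factor, summed to 15.1 to 52.9 CPM, 5.75 to 12.2 CPM, 6.62 to 13.2 CPM and 11.5 to 36.5 CPM, with Treml1 at 0 in acute and Gp6 at 0 in fibrosis libraries, and 3 and 2 of 6 tested genes were lower at these stages. At each of these stages 1 of the 6 was higher. The 11 stellate cell markers summed to 394 to 1071 CPM, 1342 to 2152 CPM, 1321 to 1766 CPM and 977 to 2349 CPM, with 8, 5 and 0 lower and 1, 3 and 8 higher. Reln alone held a mean of 167, 1678, 1378 and 208 CPM of this sum, and the other 10 genes, separated out after the data were seen, summed to 270.5 to 890.3 CPM, 28.4 to 47.7 CPM, 58.0 to 195 CPM and 839 to 2124 CPM. The 16 immediate-early genes, which cell isolation can induce, summed to 47993 to 79632 CPM, 1517 to 4810.3 CPM, 4343 to 6979 CPM and 23164 to 47131 CPM, with 16, 15 and 8 lower. The part of these lists in the results was not tested. The labels give no processing batch, and one that followed the stages and the stages themselves cannot be told apart.

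Vwf changed most among the 9 genes. It ran at 1119 to 3883 CPM with a median of 2088 in the 6 healthy libraries. After 2 weeks of CCl4 its levels were 11.5, 17.4, 6.89, 4.93 and 12.8 CPM, and after 6 weeks they were 11.7, 30.8, 20.7, 23.8 and 38.3 CPM. Every injured library at these stages was thus far below every healthy one. The fall was 214-fold in acute injury (log2 fold change -7.74 ± 0.39, adjusted p = 8.32e-09; ± is the standard error, SE) and 86.3-fold in fibrosis (-6.43 ± 0.37, adjusted p = 2.67e-08). In such bulk libraries, fewer cells of a type and less RNA per cell cannot be told apart. The cirrhotic libraries held 1392 to 3496 CPM with a median of 2136, and they overlapped the healthy ones throughout. Their difference from healthy was 0.09 ± 0.33, adjusted p = 0.837, whereas they exceeded the fibrosis libraries 95.3-fold (6.57 ± 0.32, adjusted p = 3.72e-09) and the acute ones 233-fold (7.86 ± 0.34, adjusted p = 8.43e-10).

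F8 moved in the same stages but much less. Healthy libraries spanned 167 to 447 CPM with a median of 284, with replicates 3, 5 and 6 well above the other 3. Acute libraries had 116, 120.0, 106, 103 and 105 CPM and fibrosis libraries 109, 121, 81.0, 109 and 98.6 CPM. All 10 lay under the lowest healthy library, although by a smaller margin than for Vwf. F8 fell 2.44-fold in acute injury (-1.29 ± 0.25, adjusted p = 0.000473) and 2.55-fold in fibrosis (-1.35 ± 0.26, adjusted p = 0.000509). Cirrhotic libraries lay close together, at 256 to 299.6 CPM with a median of 272, inside the healthy range, and differed from healthy by 0.02 ± 0.23, adjusted p = 0.958. Against fibrosis they were 2.67-fold higher (1.42 ± 0.10, adjusted p = 8.43e-08). The coefficient of variation of F8 was 40.7% among healthy and 6.63% among cirrhotic libraries.

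The genes that handle factor VIII and von Willebrand factor outside these members were uneven too. Of 8 such genes tested, 5 were lower and 1 higher in acute injury, 4 were lower and 1 higher in fibrosis, and 1 was higher in cirrhosis. Their median log2 fold changes were -3.08, -1.76 and 0.12, beside -0.09, -0.03 and 0.07 over all genes. Adamts13, the protease that trims von Willebrand factor, was at 0.706 ± 0.707 CPM in acute and 26.6 ± 12.8 CPM in healthy libraries (-5.53 ± 0.73, adjusted p = 2.33e-05), and it was the gene called higher in cirrhosis (1.20 ± 0.45, adjusted p = 0.0335). Stab2, a scavenger receptor of sinusoidal endothelium that clears the complex of both factors, dropped from 3483 ± 1304 CPM to 148 ± 71.7 CPM in acute injury (-4.52 ± 0.33, adjusted p = 1.53e-07) and to 179.7 ± 55.5 CPM in fibrosis (-4.18 ± 0.32, adjusted p = 2.94e-07). In cirrhosis Stab2 was at 3295 ± 553 CPM (0.02 ± 0.26, adjusted p = 0.953). Clec4m, a lectin receptor of the same endothelium, fell by 4.65 on the log2 scale in fibrosis, and the asialoglycoprotein receptor subunit Asgr2, best known from hepatocytes, fell by 5.51 in acute injury.

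Tissue factor ran against this pattern. F3 was low in healthy libraries, at 0.465 to 2.08 CPM with a median of 1.34, which rests on 13 to 62 counts. It was at 7.92, 4.03, 11.5, 11.9 and 34.3 CPM in acute and at 20.1, 29.4, 28.9, 32.5 and 16.9 CPM in fibrosis libraries. All of these were above every healthy library, and acute replicate 8, at 34.3 CPM, was the highest of all. The rise was 9.80-fold in acute injury (3.29 ± 0.61, adjusted p = 0.000341) and 23.2-fold in fibrosis (4.54 ± 0.36, adjusted p = 4.07e-07). Cirrhotic libraries fell back to 1.57 to 5.00 CPM with a median of 3.05. They were still 2.74-fold higher than healthy (1.45 ± 0.38, adjusted p = 0.00611), although replicate 2 lay within the healthy range, and 8.21-fold lower than fibrosis (-3.04 ± 0.28, adjusted p = 8.6e-07).

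Its inhibitor Tfpi was higher than healthy at all 3 stages. Healthy libraries held 34.7 to 151 CPM with a median of 73.9, again with replicates 5 and 6 highest. Acute libraries held 176, 161, 234, 160.1 and 235 CPM and fibrosis libraries 176, 199.6, 237, 181 and 207 CPM. Each of them exceeded every healthy library. Cirrhotic libraries had 144 to 183 CPM with a median of 157, and 3 of the 6 lay below the highest healthy value. The log2 fold changes were 1.33 ± 0.35, adjusted p = 0.00367 in acute injury, 1.43 ± 0.34, adjusted p = 0.00216 in fibrosis and 1.07 ± 0.30, adjusted p = 0.00928 in cirrhosis, which are 2.52-fold, 2.69-fold and 2.10-fold. The fall from fibrosis to cirrhosis (-0.31 ± 0.10, adjusted p = 0.0132) stayed under the fold threshold.

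Among the receptors of thrombin and related proteases, F2r, the main thrombin receptor, fell in fibrosis (-0.84 ± 0.16, adjusted p = 0.000527). It was low in acute injury too, with means of 81.8 CPM in healthy, 32.6 CPM in acute and 42.8 CPM in fibrosis libraries. Acute libraries reached at most 37.0 CPM, and the lowest healthy one was at 61.3 CPM. F2rl3, a further thrombin receptor, rose in acute injury (2.33 ± 0.61, adjusted p = 0.00399) and in fibrosis (1.61), with means of 0.583 CPM in healthy, 2.77 CPM in acute and 1.37 CPM in fibrosis libraries. F2rl1, the trypsin-activated receptor, fell in acute injury (-2.25 ± 0.66, adjusted p = 0.00759). Of the 4 receptors 2 were lower and 1 higher in acute injury, 1 lower and 1 higher in fibrosis, and 0 called in cirrhosis by limma-voom, edgeR or DESeq2, with an unadjusted p below 0.05 for 1.

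In the protein C pathway, the thrombin-binding member changed far more than the protein C-binding one. Thbd was at 984 to 2511 CPM with a median of 1408 in healthy libraries. It was at 98.2, 132, 122, 74.7 and 113 CPM in acute and 61.0, 74.7, 66.5, 51.3 and 41.6 CPM in fibrosis libraries. Every one of these was far below the lowest healthy library. The fall was 14.2-fold in acute injury (-3.83 ± 0.23, adjusted p = 2.7e-08) and 25.4-fold in fibrosis (-4.67 ± 0.23, adjusted p = 8.84e-09). Thbd was also 1.73-fold lower in fibrosis than in acute injury (-0.79 ± 0.18, adjusted p = 0.0149), with 1 overlapping library on each side. In cirrhosis it was at 1204 to 1577 CPM with a median of 1307, inside the healthy range (-0.18 ± 0.20, adjusted p = 0.45), and 23.3-fold above fibrosis (4.54 ± 0.15, adjusted p = 2.6e-10).

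Procr was not called in acute injury. Healthy libraries ranged widely, at 199 to 989 CPM with a median of 373. Acute libraries had 412, 503, 253, 149.9 and 226 CPM, and 4 of these 5 lay within the healthy range, and the difference did not pass the test (-0.48 ± 0.43, adjusted p = 0.321). Fibrosis libraries had 120.5, 164, 138, 112 and 147 CPM. All of them were below every healthy library, and the fall was 2.84-fold (-1.51 ± 0.37, adjusted p = 0.00256). In cirrhosis Procr was at 276 to 740.3 CPM with a median of 534, not called against healthy (0.32 ± 0.39, adjusted p = 0.4935) and 3.70-fold above fibrosis (1.89 ± 0.21, adjusted p = 5.38e-06). Its call against acute injury (0.83 ± 0.32, adjusted p = 0.0292) was lost in 5 of 11 fits that each left out 1 library (cirrhosis replicate 1 or 2, or acute replicate 3, 4 or 8), with log2 fold changes of 0.60 to 1.03 over the 11.

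Of the 6 genes of protein C itself and the related protein S and Gas6 ligands and receptors, 4 were lower and 1 higher in acute injury, 2 lower and 1 higher in fibrosis and 2 lower and 1 higher in cirrhosis. Gas6, a vitamin K-dependent ligand that binds the receptors Axl, Mertk and Tyro3, fell from 1105 ± 287 CPM in healthy to 51.8 ± 13.5 CPM in acute injury (-4.38 ± 0.24, adjusted p = 1.7e-08) and to 48.3 ± 11.1 CPM in fibrosis (-4.43 ± 0.22, adjusted p = 9.96e-09). In cirrhosis it was still lower than healthy, at 400.4 ± 81.2 CPM (-1.43 ± 0.22, adjusted p = 0.000246). Proc, the protein C gene, fell in acute injury (-4.70 ± 1.24, adjusted p = 0.00398). All 10 hepatocyte markers were lower in that comparison too (median -5.99), and their part in the fall of Proc was not tested. Tyro3 fell in fibrosis (-1.27) and in cirrhosis (-1.47 ± 0.21, adjusted p = 0.000163).

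The sequence before the transcription start is shown for Procr and for the urokinase pair, Plau and Plaur, whose levels moved differently over the stages. The windows are the 250 bases upstream of the start of each gene in RefSeq's GRCr8 table, a newer build than the Rnor_6.0 genome used for the counts. Of the 9 genes, 4 matched the table by symbol (Tfpi also, with 2 windows), and F8, Vwf, Thbd, F3 and Plat did not. Capitals mark every match, on either strand, to AP-1 (TGANTCA), KLF (CACCC), SP1 (GGGCGG) and EGR (GNGGGCG) motifs. The windows are Procr at chr3:164714477-164714726 (plus strand), Plau at chr15:3511988-3512237 (minus strand) and Plaur at chr1:89181113-89181362 (plus strand), each written 5′ to 3′ on the strand of its gene.
Procr: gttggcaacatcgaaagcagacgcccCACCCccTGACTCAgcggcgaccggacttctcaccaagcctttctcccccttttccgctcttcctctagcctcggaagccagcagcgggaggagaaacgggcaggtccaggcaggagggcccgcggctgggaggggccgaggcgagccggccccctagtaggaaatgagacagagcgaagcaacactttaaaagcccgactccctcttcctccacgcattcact
Plau: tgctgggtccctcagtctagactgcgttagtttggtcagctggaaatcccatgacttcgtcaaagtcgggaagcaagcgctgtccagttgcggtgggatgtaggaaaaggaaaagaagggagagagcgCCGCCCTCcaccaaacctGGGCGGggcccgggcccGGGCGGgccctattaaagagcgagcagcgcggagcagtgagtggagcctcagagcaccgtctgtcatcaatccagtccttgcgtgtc
Plaur: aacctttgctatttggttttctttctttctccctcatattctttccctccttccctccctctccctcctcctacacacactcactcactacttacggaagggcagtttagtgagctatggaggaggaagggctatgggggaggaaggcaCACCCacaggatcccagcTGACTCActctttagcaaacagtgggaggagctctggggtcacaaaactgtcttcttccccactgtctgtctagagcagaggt
Procr and Plaur each held 1 AP-1 match, at positions -217 to -211 and -83 to -77 from the start, and 1 KLF match, whereas Plau held neither. The AP-1 motif was found in 6.34% and the KLF motif in 49.2% of 33469 windows of this length. HIF (ACGTG) and NF-kB motifs were also sought and had a match in 0 members, where 16.6% and 3.54% of these windows held one. Plau held 3 SP1 matches and 1 EGR match that overlapped the first of them, motifs found in 30.5% and 26.1% of windows. Tfpi held 2 KLF matches in the first of its windows. These are matches of letters and say nothing of binding.

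Plat, the plasminogen activator of resting endothelium, was the only member that was lower than healthy early and higher late. Its healthy level was 135 to 268 CPM with a median of 206. It was at 21.4, 27.2, 26.03, 20.02 and 19.96 CPM in acute and 24.2, 47.5, 36.0, 44.9 and 26.8 CPM in fibrosis libraries, all below every healthy one. Plat fell 8.54-fold in acute injury (-3.09 ± 0.18, adjusted p = 2.31e-08) and 5.48-fold in fibrosis (-2.46 ± 0.22, adjusted p = 1.01e-06). Cirrhotic libraries then held 649 to 1707 CPM with a median of 879. Each was above every healthy library, the rise was 4.64-fold (2.22 ± 0.24, adjusted p = 6.94e-05), and it was the only member without overlap between cirrhosis and healthy, where 27.2% of all genes had none. Against fibrosis the cirrhotic level was 26.5-fold higher (4.73 ± 0.26, adjusted p = 1.11e-08) and against acute injury 40.5-fold (5.34 ± 0.23, adjusted p = 6.95e-10). Replicate 6 was the highest of the cirrhotic libraries, and leaving out any 1 library left the call against healthy in place.

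Urokinase fell at both early stages and was not called between cirrhosis and healthy. Plau was at 56.0 to 258 CPM with a median of 136 in healthy libraries. Acute libraries held 33.8, 29.9, 33.3, 32.4 and 15.6 CPM and fibrosis libraries 16.4, 22.4, 43.9, 18.4 and 11.9 CPM. None of these reached the lowest healthy library, and acute replicate 8 was apart from the rest of its group. The fall was 4.36-fold in acute injury (-2.13 ± 0.36, adjusted p = 0.000156) and 5.88-fold in fibrosis (-2.56 ± 0.40, adjusted p = 0.000113). In cirrhosis Plau was at 55.8 to 192 CPM with a median of 131, which differed from healthy by -0.09 ± 0.37, adjusted p = 0.849 and exceeded fibrosis 5.80-fold (2.54 ± 0.36, adjusted p = 4.08e-05).

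The urokinase receptor was not called against healthy at any stage. Plaur was the most variable member in healthy libraries, at 41.4 to 469 CPM with a median of 141, an 11.3-fold span with replicate 3 at the top. Acute libraries had 208, 182, 188, 139 and 206 CPM and fibrosis libraries 228, 299, 287, 238 and 224 CPM. Both groups lay within the healthy range and neither was called (0.43 ± 0.50, adjusted p = 0.442; 0.94 ± 0.50, adjusted p = 0.107). Without healthy replicate 3 the fibrosis difference was 1.28 with an adjusted p of 0.0147, and without TMM scaling it was 1.33 with an adjusted p of 0.0186, and both were called. Cirrhotic libraries had 75.5 to 206 CPM with a median of 162, again not called against healthy (0.09 ± 0.50, adjusted p = 0.886), and each was below every fibrosis library, a 1.73-fold fall (-0.79 ± 0.22, adjusted p = 0.00643). That call was lost in a fit over all 4 CCl4 groups together, with a log2 fold change of -0.79.

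Of the protease inhibitors of vessel wall and matrix that could be tested, 1 of 6 was higher and 4 lower in acute injury, 1 of 7 higher and 3 lower in fibrosis, and 4 of 7 higher and 1 lower in cirrhosis. Their median log2 fold changes were -2.06, -0.85 and 1.96. Serpinb2, plasminogen activator inhibitor 2, had 0.154 ± 0.168 CPM in healthy libraries and rose to 43.7 ± 37.4 CPM in acute injury (8.25 ± 1.04, adjusted p = 1.47e-05) and to 97.5 ± 23.3 CPM in fibrosis (9.81 ± 0.57, adjusted p = 3.22e-08). In cirrhosis it was at 0.695 ± 0.367 CPM (2.44 ± 0.70, adjusted p = 0.00984). Serping1, the C1 inhibitor, which also blocks contact-phase proteases, fell from 1470.3 ± 521 CPM in healthy to 70.7 ± 22.6 CPM in acute injury (-4.32 ± 0.29, adjusted p = 7.59e-08) and to 115 ± 41.9 CPM in fibrosis (-3.60 ± 0.30, adjusted p = 5.6e-07). A2m, the broad protease inhibitor alpha-2-macroglobulin, had the largest difference of the list in cirrhosis (4.26 ± 1.26, adjusted p = 0.0114), from 1.36 ± 2.47 CPM in healthy, where the SD exceeded the mean, to 4.16 ± 2.84 CPM. Among 6 plasminogen receptors and cofactors, 1 was higher and 3 lower in acute injury, and 2 were higher and 1 lower in fibrosis. In cirrhosis 4 of 6 were higher and 1 was lower, with Thbs1 (thrombospondin 1) at 1.02 and the enolase Eno1 at -1.22. The median log2 fold changes of this list were -0.34, 0.30 and 0.71. Lrp1, the receptor that takes up inhibited plasminogen activators, fell in acute injury (-1.63 ± 0.40, adjusted p = 0.00257) and in fibrosis (-1.71 ± 0.45, adjusted p = 0.00405).

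Ratios of genes within a library depend little on the scaling between libraries, and they are given as log2 ratios of CPM with 0.5 added, mean ± SD. Since gene length was not taken into account, only their differences between groups can be read. Urokinase over its receptor was -0.15 ± 0.84 in healthy, -2.69 ± 0.59 in acute, -3.60 ± 0.55 in fibrosis and -0.33 ± 0.30 in cirrhosis libraries. The acute and fibrosis libraries did not overlap the healthy ones, and the cirrhotic libraries did.

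The pairs of the coagulation side shifted in the same stages. Vwf over F8 was 2.93 ± 1.11 in healthy, -3.42 ± 0.62 in acute, -2.12 ± 0.66 in fibrosis and 3.01 ± 0.60 in cirrhosis libraries, so that carrier and cargo did not move in proportion. Thbd over Procr was 1.93 ± 0.74, -1.41 ± 0.54, -1.22 ± 0.34 and 1.43 ± 0.57, with no overlap of the acute or fibrosis libraries with the healthy ones. F3 over Tfpi was -5.56 ± 1.02, -4.06 ± 0.89, -2.98 ± 0.42 and -5.50 ± 0.42. For this pair the acute and healthy libraries overlapped and only the fibrosis libraries stood clear of the healthy ones.

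**Figure D3:**
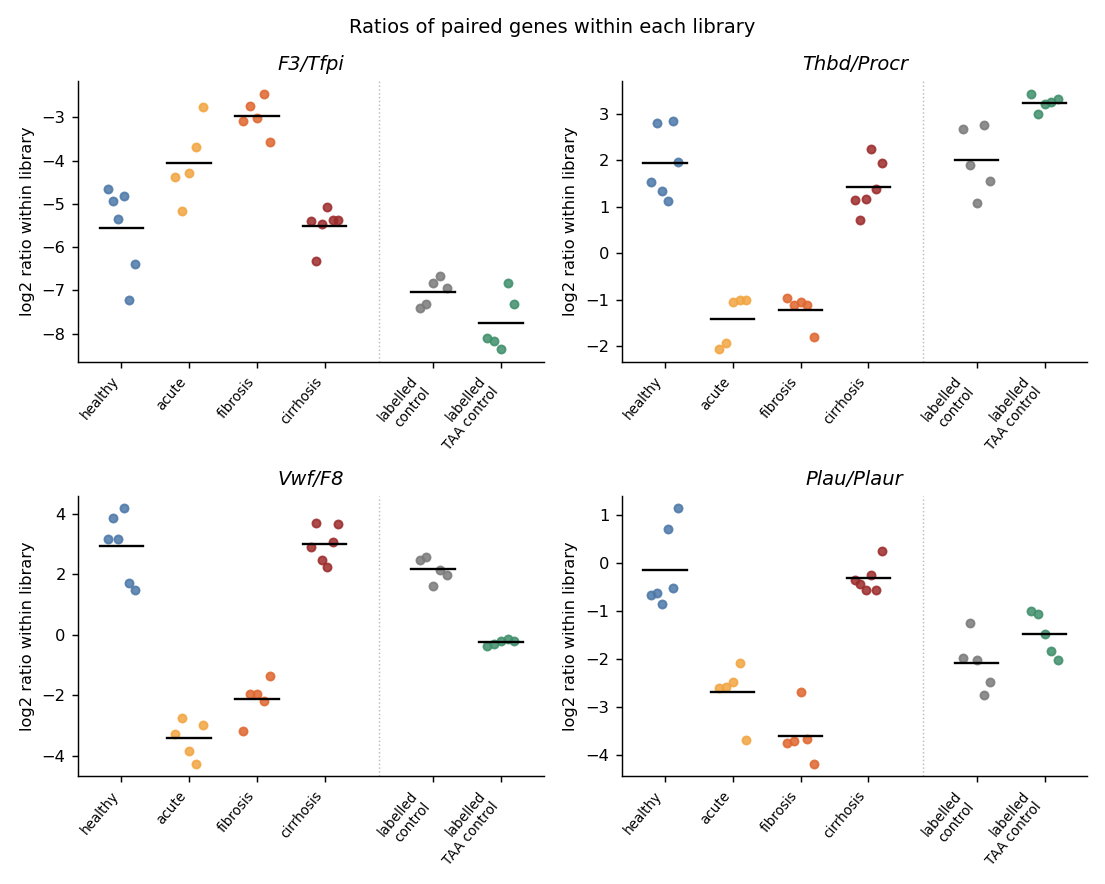
Log2 ratio of 2 genes within each library, for 4 pairs; points are libraries, black lines are group means, and the dotted line separates the CCl4 model from the TAA experiment. The Vwf to F8 ratio is at -3.42 on average in acute injury and at 3.01 in cirrhosis, whose libraries overlap the healthy ones.

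The 2 early stages differed from each other far less than from healthy, and 11% of all genes tested were called between them, 10.2% higher and 0.732% lower in fibrosis. Of the members, Vwf (1.37 ± 0.39, adjusted p = 0.0336) and Plat (0.69 ± 0.20, adjusted p = 0.0355) were higher in fibrosis, and Thbd and Procr (-0.98 ± 0.28, adjusted p = 0.0322) were lower. F3 did not pass the test (fitted fold 2.46, adjusted p = 0.0522), and Plaur was higher in every fibrosis than in every acute library but under the fold threshold (0.55 ± 0.12, adjusted p = 0.0135), the 1 member without overlap, where 17.2% of all genes had none. F8 (-0.01), Tfpi (0.14) and Plau (-0.41) were not called. These calls were fragile. In fits that each left out 1 library the number of members called was 2 without acute replicate 1, 2, 3 or 4 or fibrosis replicate 13, and 1 without fibrosis replicate 15 or 16, whereas it was 6 without acute replicate 8 and 5 without fibrosis replicate 17. Thbd was the member called in all 10 of these fits.

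Between fibrosis and cirrhosis 8 of the 9 members were called, 6 higher in cirrhosis (Vwf, Plat, Thbd, Plau, Procr and F8) and 2 lower (F3 and Plaur), where 34.3% of all genes were called higher, 29.5% lower and 63.8% in either direction. The groups did not overlap for 8 members, where 63.3% of all genes had no overlap. Between acute injury and cirrhosis 6 were higher and F3 was lower (-1.80 ± 0.50, adjusted p = 0.00516), where 37.5% of all genes were called higher, 31.8% lower and 69.3% in either direction. There 5 members had no overlap, against 65.9% of all genes. Tfpi (-0.24 ± 0.13, adjusted p = 0.114) and Plaur (-0.31 ± 0.22, adjusted p = 0.206) were not called there. The stellate list was higher in cirrhosis than in fibrosis in 8 of 11 genes (1 was lower), the LSEC list in 12 of 13, the Kupffer list in 12 of 12 and the immediate-early list in 14 of 16, and their part in the members' differences was not tested.

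Values of the TAA experiment are given for the group labelled control first. There 8 of the 9 members were lower in the group labelled TAA control than in the group labelled control, where 27.6% of all genes were called and 14.9% were called lower. All 9 were without overlap, where 35.4% of all genes were. Plat had the largest difference of the members. It was at 1273, 1076, 1335, 1288 and 1132 CPM in the libraries labelled control and at 68.3, 62.4, 55.2, 87.4 and 89.5 CPM in those labelled TAA control, 17.1-fold lower (-4.09 ± 0.15, adjusted p = 2.31e-07). The gap between these groups was many times the spread within either.

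The other fibrinolysis genes were lower in the same group. Plaur was at 102, 88.2, 134, 226 and 197 CPM in the group labelled control and 24.4, 29.8, 21.0, 48.2 and 53.2 CPM in the group labelled TAA control (-2.09 ± 0.32, adjusted p = 0.00045). Plau was at 25.5, 36.6, 32.7, 33.4 and 35.2 CPM against 11.9, 13.9, 7.21, 13.1 and 12.6 CPM (-1.51 ± 0.17, adjusted p = 7.77e-05). The urokinase to receptor ratio of the groups overlapped, at -2.09 ± 0.57 and -1.49 ± 0.45.

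Vwf was at 2302, 2223, 1284, 1739 and 1616 CPM in the group labelled control and 381, 413, 415, 451 and 406 CPM in the group labelled TAA control (-2.12 ± 0.14, adjusted p = 5.59e-06). F8 was the exception among the members, at 410.0, 374, 413, 390.3 and 404 CPM against 488, 507, 475, 494 and 470.0 CPM. It was higher in every library labelled TAA control, by 1.22-fold, which is under the fold threshold (0.29 ± 0.06, adjusted p = 0.002). The Vwf to F8 ratio was 2.17 ± 0.38 and -0.24 ± 0.09.

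Procr was at 418, 349, 520.4, 224 and 364 CPM in the group labelled control and 75.2, 93.0, 76.2, 84.9 and 79.8 CPM in the group labelled TAA control (-2.15 ± 0.18, adjusted p = 1.59e-05). Thbd was at 2683, 1302, 1106, 1525 and 1061 CPM against 814, 743, 704, 811 and 803 CPM (-0.90 ± 0.21, adjusted p = 0.00497). The groups of both genes stood apart, with replicate 1 of the group labelled control far above the rest for Thbd. Thbd was thus 1.87-fold and Procr 4.44-fold lower. Tfpi was at 339, 404, 302, 384 and 461 CPM against 258, 269, 238, 205 and 207 CPM (-0.68 ± 0.12, adjusted p = 0.00113). F3 was low in both, at 1.52, 2.03, 2.18, 3.31 and 3.22 CPM against 0.442, 0.434, 0.231, 1.304 and 0.797 CPM (-2.13 ± 0.41, adjusted p = 0.00166), the latter resting on 7 to 33 counts a library.

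Other markers differed between these groups as well. The stellate list was lower in the group labelled TAA control in 10 of 11 genes, with summed levels of 2982 to 6462 CPM in the group labelled control and 548 to 942 CPM in the other. The immediate-early list was higher in 13 of 16 genes, with 15068 to 29768 CPM and 46632 to 67968 CPM. The LSEC list was higher in 5 of 13 genes, with 21347 to 26923 CPM and 27198 to 35818 CPM, and the 19 coagulation factors of hepatocytes were all lower. The part of these lists in the members' differences was not tested. The labelled TAA control libraries numbered 14 and 15 were the closest pair within any group (chi-square per degree of freedom 2.96, next lowest pair 23.6). The SE and p-values of this experiment count them as separate replicates, and the labels do not show whether they are. The number of members called was 8 with either of them left out.

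Over the 22 CCl4 libraries, after the group means were subtracted, the highest correlations of log2 CPM were F8 with Tfpi (r = 0.77), Plau with Plaur (0.62) and Vwf with Procr (0.62), and the lowest was Tfpi with Plaur (-0.39). The first and the last rested on the healthy libraries. Without these 6, an alternative chosen after the data were seen, r over the other 16 was -0.27 for F8 with Tfpi and 0.14 for Tfpi with Plaur, while it was 0.61 for Plau with Plaur and 0.62 for Vwf with Procr. Among the healthy libraries, F8 and Tfpi were both highest in replicates 5 and 6, whose hepatocyte markers summed to 840 CPM (the lowest) and 18903 CPM. These libraries share stage, isolation and scaling, and the values describe this set of libraries.

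The genes whose log2 CPM followed each member most closely over the 22 CCl4 libraries were taken from the 8525 genes that were well expressed, and each is given with r across all libraries, r within groups, and r within groups without the healthy libraries. For Vwf they were Fbln2 (0.99, 0.56, 0.37), Eln (0.99, 0.58, 0.67), Sema3f (0.99, 0.64, 0.59). For F8 they were Arhgef11 (0.98, 0.88, 0.53), Man1c1 (0.97, 0.84, 0.03), Ppp1r16b (0.97, 0.85, 0.16). Thbd was followed by Eml1 (0.99, 0.62, 0.71), Mapt (0.99, 0.87, 0.84), St3gal5 (0.98, 0.40, 0.63), and Procr by Mmp24 (0.89, 0.86, 0.77), Dusp6 (0.83, 0.55, 0.37), Fbxo10 (0.78, 0.63, 0.40). The first r includes the differences between stages and the others do not. Tfpi was followed by Ptbp3 (0.98, 0.95, 0.67), Foxn2 (0.98, 0.94, 0.58). F3 was closest to Itgav (0.96, 0.68, 0.69), Pabpc1 (0.95, 0.68, 0.75), Gab2 (0.95, 0.58, 0.77). Plat had Trim16 (0.97, 0.40, 0.23), Gla (0.97, 0.39, 0.45), Steap4 (0.97, 0.18, 0.07). Plau was closest to Ralgds (0.94, 0.74, 0.63), Acp5 (0.93, 0.70, 0.75), Pik3ap1 (0.93, 0.68, 0.69) and Plaur to Tle3 (0.90, 0.89, 0.64), Pelo (0.84, 0.81, 0.64), Rpl10 (0.84, 0.83, 0.35).

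The antithrombotic surface of endothelium outside the members changed in both directions. Of 10 genes, 6 were lower and 3 higher in acute injury, 5 lower and 4 higher in fibrosis, and 3 lower and 3 higher in cirrhosis, with median log2 fold changes of -1.68, -0.87 and 0.57. Klf2, a flow-responsive transcription factor that governs much of this surface, fell from 585 ± 213 CPM in healthy to 5.09 ± 2.66 CPM in acute injury (-6.95 ± 0.41, adjusted p = 2.91e-08) and to 6.73 ± 0.676 CPM in fibrosis (-6.29 ± 0.30, adjusted p = 7.65e-09). In cirrhosis it remained below healthy at 215 ± 91.7 CPM (-1.44 ± 0.30, adjusted p = 0.00166). In the TAA experiment it was higher in the group labelled TAA control (1.63 ± 0.32, adjusted p = 0.00197). Nos3, the endothelial nitric oxide synthase, fell in acute injury (-4.93 ± 0.23, adjusted p = 4.71e-09) and in fibrosis (-4.99 ± 0.23, adjusted p = 7.14e-09). Ptgs2, the inducible cyclooxygenase, rose in cirrhosis (2.36 ± 0.31, adjusted p = 0.000138), where Ptgis, the prostacyclin synthase, fell (-1.74 ± 0.32, adjusted p = 0.000765).

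The coagulation factors that the liver's hepatocytes make are given beside the members, whose median log2 fold changes at these stages were -1.29, -1.51 and 0.09. A difference between the 2 lists was not tested. All 19 were lower in acute injury, with a median log2 fold change of -4.43, 2 were lower in fibrosis (median -1.49) and 0 of 19 were called in cirrhosis by limma-voom (median 0.20), with 0 at an unadjusted p below 0.05, 3 called by edgeR and 4 by DESeq2. Proz, the protein Z gene, fell most in acute injury (-5.85 ± 1.37, adjusted p = 0.00181), followed by F2, prothrombin (-5.51 ± 1.17, adjusted p = 0.000926). In fibrosis Serpinf2, the plasmin inhibitor alpha-2-antiplasmin, fell (-2.85 ± 0.96, adjusted p = 0.0173). Their summed level was 82.8 to 3354 CPM in healthy and 17.6 to 78.4 CPM in acute libraries, and it moved with the hepatocyte markers given above. The 2 lists are not separate, since both hold Fgb, the highest gene of the factors.

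The same lists differed in the TAA experiment, as labelled TAA control against labelled control. The inhibitors were higher in 1 and lower in 3 of 6 genes, with A2m at -7.85 and Serpine2 at -3.52, and plasminogen receptors were lower in 4 of 6, with Lrp1 at -2.07 and Thbs1 at -1.92. Genes that handle factor VIII and von Willebrand factor were higher in 1 and lower in 2 of 8, with Adamts13 at -3.69, while Stab2 was not called (-0.55 ± 0.10, adjusted p = 0.00133). The antithrombotic surface was higher in 1 and lower in 6 of 10, and the protein C and Gas6 genes higher in 2 and lower in 1 of 6. Of the receptors of thrombin and related proteases, F2rl1 was lower (-4.23) and F2rl2 higher (1.17).

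**Figure D4:**
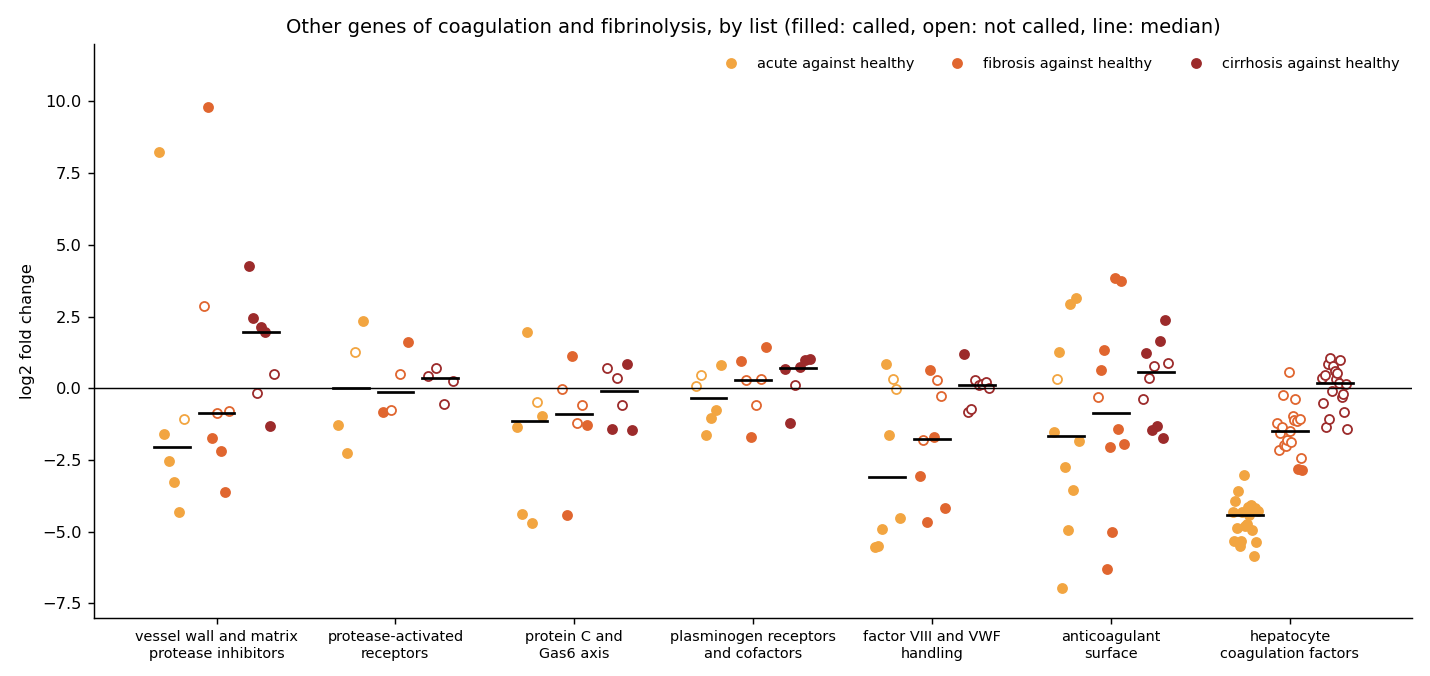
Log2 fold change against healthy of every tested gene in 7 lists of coagulation and fibrinolysis genes outside the members, at the acute, fibrosis and cirrhosis stages; filled points were called, open points were not, and black lines are list medians. The median of the hepatocyte factors lies at -4.43 in acute injury and at 0.20 in cirrhosis, and Serpinb2 is the highest point of the first list in both early stages.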

How the data were processed

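RNA of rat LSECs was sequenced in 32 libraries with a stranded poly(A) kit. The authors aligned reads with STAR to the Rnor_6.0 genome and counted genes by RSEM, and the submitters' processing notes also name FastQC, Trim Galore and limma, without versions. The deposited values are RSEM expected counts (estimated counts) for 32623 genes, not normalized, and reads that fit several genes are divided between them by estimate. Expected counts were rounded, genes were filtered with filterByExpr, and libraries were scaled by TMM and fitted with limma-voom 3.58.1 (edgeR 4.0.16, R 4.3.3) on the 2 groups of each comparison, after the study's methods. A call needed a Benjamini-Hochberg adjusted p below 0.05 over all genes tested, in place of the study's unadjusted p, and a fold change above 1.5. CPM are TMM-scaled, separately for the 22 CCl4 and the 10 TAA libraries.

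The fits were tested on simulated counts. Alternatives were edgeR's quasi-likelihood test, DESeq2 1.42.0, other thresholds, scalings and filters, 1 fit over all CCl4 groups, a replicate block, and each library left out. Replicate numbers, from the sample titles (the descriptions number 4 TAA libraries otherwise), were not taken as pairs. Likeness of pattern used genes with a log2 CPM averaging 3 or more. All 9 members are named in every comparison; from the gene lists a gene is named when called and among the 2 largest changes of its list, and Klf2 and Stab2 always; results of some genes under this rule are not reported here. The members, lists and tests were chosen with earlier results of these data known. Depth (25646531 to 46464289 counts a library) limits F3 among the members, at 7 to 62 counts in the lowest groups, and the list genes below 1 CPM in a group, such as Serpinb2, F2rl3 and Adamts13.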

Additional observations from a re-analysis of the deposited data

Results flagged for a closer look

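Plau had a library apart from its group at 2 places. In acute injury, replicate 8 was at 15.6 CPM and the other 4 libraries at 29.9 to 33.8 CPM. In the group labelled TAA control, replicate 13 was at 7.21 CPM and the others at 11.9 to 13.9 CPM. These were found on log2 CPM by Dixon's test at the 95% level. It takes the gap of the extreme library to its neighbour over the whole range of the group. Chance flags about 1 in 20 groups, which is 2.7 of the 54 groups examined, and 2 were found.

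Plat differed in opposite directions from healthy at different stages. It was lower in acute injury and in fibrosis and higher in cirrhosis, and the direct comparison of the stages gave log2 fold changes of 4.73 (cirrhosis against fibrosis) and 5.34 (cirrhosis against acute), both called by limma-voom.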

How the results depend on the processing

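The number of members called stayed within 1.5 times its value in 6 of the 7 comparisons under every alternative run. For fibrosis against acute it was 4, 2 in 1 fit over the 4 CCl4 groups, in which Vwf, Plat and Procr lost and F3 gained a call, and 1 to 6 with 1 library left out. Values whose sign turned were not called under either setting. For cirrhosis against healthy these were F8 (-0.076 with edgeR, -0.059 with DESeq2, -0.13 to 0.14 with 1 library left out), Plaur (-0.29, -0.27, and -0.27 to 0.45), Plau (0.26 without TMM, 0.011 with a filter at 1 CPM, -0.34 to 0.12), Thbd (0.16 without TMM) and Vwf (-0.11 to 0.26). F8 in fibrosis against acute was 0.0092 with that filter and -0.0705 to 0.0707 with 1 library left out. The cause was not tested. Without TMM, Plaur in fibrosis was called against healthy (1.33), Plat in fibrosis lost its call against acute (0.63), and the share of higher calls among all genes moved from 48.4% to 58.2% in acute injury, from 50.3% to 60.9% in fibrosis and from 52.2% to 71.3% in cirrhosis. Over all genes, fibrosis against acute gave 1529 calls, 746 in the fit over 4 groups, 1011 without acute replicate 1 and 2826 without the fold threshold; the TAA experiment gave 3970 and, without that threshold, 7139. Libraries of the same number did not all deviate together (r of -0.24 to 0.29, over 0.1 in 5 of 14 pairs). The replicate block, with libraries of shared number only, left 7, 3 and 7 members called (acute against healthy, cirrhosis against healthy, cirrhosis against acute), and the pairing turned Plaur in acute injury to -0.16, not called.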
